A study of Mus musculus with 12 samples.

Results

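The libraries compared here are 6 of the 12 in the series: 3 of 4T1 cells transfected with a mouse Myb plasmid (MYBup) and 3 of untransfected 4T1 cells (wt). 4T1 is a mouse mammary carcinoma line that seeds the lung. MYBup cells carried the plasmid pcDNA3-mMyb and were not passaged in mice. The wt cells carried no plasmid and were not passaged either. A further group, mock, had received the empty plasmid pcDNA3.1, and lung3 cells went through 3 passages in the lung. Both entered the filter on low counts, the average level of a gene and the estimate of the spread. Mock values and comparisons are given beside those of MYBup and wt for some genes and lists, and lung3 was not compared here. The labels rate the lung metastatic activity of MYBup cells as low and that of wt cells as normal, and they do not say whether the transfected cells are a pool or 1 clone. MYBup and wt therefore differ in Myb, in the transfection, and in the history of the lines. These cannot be told apart in this comparison, and the labels give the empty plasmid of mock a different name from the backbone of the Myb plasmid.

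The members were all genes that passed a filter on low counts: 11291 of 22880 features. No read was counted in any of the 12 libraries for 7336 features. MYBup was read against wt with edgeR's quasi-likelihood test, and adjusted p means a Benjamini-Hochberg value over those 11291 genes. A gene is said to have risen, fallen or been called where adjusted p was under 0.05. Levels are in CPM, a gene's count scaled to a common library total, and fold changes are MYBup minus wt on the log2 scale unless another pair is named.

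c-Myb, the product of Myb, is a DNA-binding transcription factor best known for holding blood progenitors in an immature, dividing state. It acts with the co-activators CBP and p300 and is also made in colonic crypts and in many breast tumours. The plasmid adds a copy of the coding sequence to the cell's own gene, and reads from either copy fall into the same row of the count table.

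Total counts were 12170188 to 18385271 in MYBup and 20617046 to 24745660 in wt libraries, so the depths did not overlap. With all libraries thinned to 1 depth, 4007 genes were called, against 4308 without thinning. Replicate 1 of MYBup and replicate 3 of wt stood apart from the other libraries of their group: the chi-square per gene was 14.4 to 17.3 for pairs that held one of them, against 2.29 and 6.52 for the pairs that held neither. The labels do not say that libraries came from separate cultures, so the p-values speak to the scatter among libraries, and this scatter could be technical only. The epithelial keratins marked all libraries. The 10 markers of mammary epithelium summed to 2751 to 2851 CPM in MYBup and 2793 to 3217 CPM in wt cells, where Krt5 had no read. Markers of leukocytes were low, at 3.40 to 4.56 CPM for 13 markers in MYBup and 4.87 to 6.47 in wt, and Cd3e, Adgre1, Tyrobp and Laptm5 had no read in either group. Markers of endothelium summed to 7.32 to 9.12 CPM in MYBup and 8.20 to 10.4 CPM in wt. Markers of fibroblasts summed to 39.9 to 49.4 CPM in MYBup and 24.5 to 30.9 CPM in wt, most of it from Pdgfra, while Lum had no read. The surfactant genes Sftpa1, Sftpb, Sftpc and Sftpd were at 0 in both groups.

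MYBup cells differed from wt cells in 4308 genes, 38.2% of those tested. Of these, 2191 were higher (19.4%) and 2117 lower (18.7%). Most differences were small: the median size of a called change was 0.51 on the log2 scale, and 725 genes (6.42%) were called with a change of at least 2-fold, 428 of them higher and 297 lower. The median over all tested genes was 0.00, so a list whose median lies away from 0 is displaced from the bulk. For the lists below, percentages called higher or lower are to be read against these 19.4% and 18.7%. The CPM of the 3 MYBup and 3 wt libraries did not overlap in 6275 genes (55.6%). In the same fit MYBup differed from mock in 26.9% of genes, 14.3% higher and 12.6% lower, and mock differed from wt in 35.9%, 18.0% higher and 17.9% lower. These 3 comparisons share libraries in pairs, so their values are set side by side below and no overlap between them is counted. Without MYBup replicate 1 and wt replicate 3, 3065 genes were called, 1647 higher and 1418 lower.

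**Figure D1:**
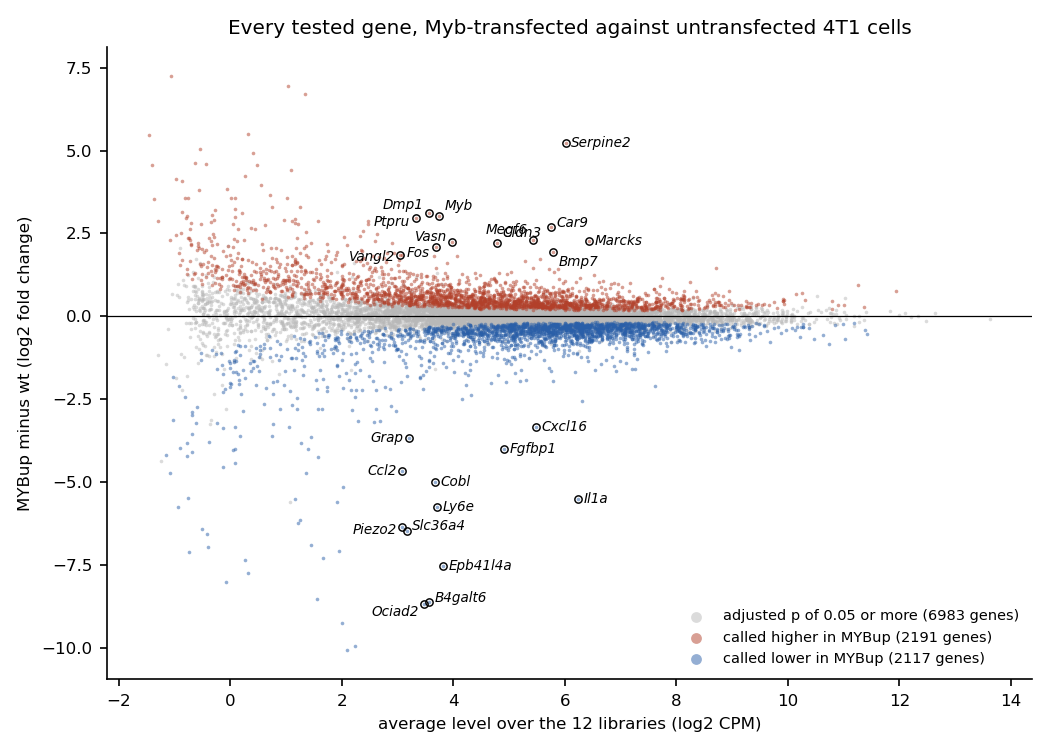
Each point is 1 of the 11291 tested genes, with its average level over the 12 libraries (log2 CPM) across and its log2 fold change, MYBup minus wt, upward. Red and blue points were called higher (2191) and lower (2117). The 24 circled genes have the largest rises and falls among well measured genes, and the falls reach further from 0 than the rises.

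The Myb row behaved as its label says. Myb (ENSMUSG00000019982, chr10:21124935-21160984, GRCm38) stood at 39.3, 42.9 and 39.8 CPM in the 3 MYBup libraries and 4.27, 4.96 and 5.75 CPM in wt. The groups lay far apart, and mock, at 5.17, 4.49 and 6.8 CPM, lay among the wt values. The log2 fold change was 3.02 (SE 0.15, adjusted p = 7.05e-08) against wt and 2.89 against mock. Exons of Myb overlap those of Gm26577 on the opposite strand by 559 bases, and reads of either could not be separated here, as the counting's use of strand is unknown. Of its neighbours on chromosome 10, Hbs1l was at 105, 95.1 and 91.5 CPM in MYBup and 91.8, 95 and 93.8 CPM in wt and was not called (log2 fold change 0.05, adjusted p = 0.64). Ahi1 was at 10.8, 9.76 and 11.7 CPM against 7.45, 9.13 and 7.67 CPM, called by a small margin (log2 fold change 0.41, adjusted p = 0.0267). Its call ended without MYBup replicate 1 (0.0568) or 3 (0.12) and without wt replicate 1 (0.0988) or 3 (0.076).

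The relatives and partners of c-Myb moved little. Of 11 tested, Myb rose and 2 fell (18.2%, near the 18.7% of all genes). Mybl2 had -0.22 and the partner Ets1 -0.32 on the log2 scale, both close to the threshold (adjusted p = 0.0489 and 0.0211). The call of Mybl2 ended when any 1 of the 6 libraries was left out (adjusted p 0.0578 to 0.174). That of Ets1 ended without MYBup replicate 1 (0.0598) or 3 (0.0655), or without wt replicate 1 (0.0744) or 2 (0.101). The co-activator genes Ep300 (-0.53) and Crebbp (-0.01) were not called. Among 19 tested genes reported as c-Myb targets in other cells, 3 rose, 6 fell and the median was 0.00. These are 15.8% and 31.6%, against 19.4% and 18.7% of all genes, and 3 fell with each chromosome centred. Gata3, a luminal mammary transcription factor, rose from 77.7, 77.5 and 70.6 CPM in wt to 124, 135 and 134 CPM in MYBup (log2 fold change 0.80, adjusted p = 5.84e-05), with no overlap between the groups. The growth regulator Myc fell by 0.29 on the log2 scale (adjusted p = 0.0215), a call that ended without MYBup replicate 1 (0.102) or wt replicate 1 (0.0639) or 3 (0.0616). The adenosine deaminase gene Ada fell by 0.87 and the glutamine carrier gene Slc1a5 by 0.73. The anti-apoptotic gene Bcl2 (0.21) and the cyclin gene Ccne1 (0.10) did not pass.

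Several of the largest rises set MYBup cells apart from mock as well as from wt cells. Car9 encodes carbonic anhydrase 9, a cell-surface enzyme that acidifies the outside of hypoxic cells. The gene lies at chr4:43506966-43513729 (GRCm38), and 214 of its exon bases are shared with Gm12454. It stood at 131, 122 and 122 CPM in MYBup and 13.2, 13.3 and 31.1 CPM in wt, where replicate 3 was highest, and at 21.3, 22 and 20.5 CPM in mock (log2 fold change 2.71, SE 0.25, adjusted p = 5.99e-06). Ptpru, a receptor tyrosine phosphatase gene, was at 25.4, 28.2 and 30.5 CPM against 3.04, 3.59 and 4.22 CPM, with mock at 5.46, 4.92 and 6.93 CPM, and its log2 fold change was 2.95 (SE 0.17, adjusted p = 1.99e-07). Dmp1, the gene of a matrix protein of bone and dentin, reached 34, 34.6 and 31.9 CPM against 2.14, 2.52 and 7 CPM in wt and 6.78, 6.56 and 8.04 CPM in mock (log2 fold change 3.12, adjusted p = 4.32e-05). In each of these genes every MYBup library exceeded every wt and every mock library. The same held for Megf6, a secreted protein with EGF-like repeats, at 80.2, 113 and 114 CPM against 22.2, 21.1 and 18.5 in wt and 32.6, 25.3 and 53 in mock, and for Bmp7, a ligand of the BMP family, at 111, 113 and 122 CPM against 24.4, 24.8 and 40.7 in wt and 51.5, 51.1 and 42.7 in mock. Their log2 fold changes were 2.32 and 1.95.

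Other large rises were shared by mock cells and did not pass when mock was the reference. Serpine2, the gene of the thrombin and plasminogen activator inhibitor nexin-1, lies at chr1:79794197-79861180 and had the largest rise among genes whose average log2 CPM was 3 or more. It went from 3.14, 2.73 and 6.19 CPM in wt to 154, 148 and 145 CPM in MYBup (log2 fold change 5.22, SE 0.36, adjusted p = 8.02e-07). Mock cells had 124, 134 and 49.9 CPM, with replicate 3 lowest, and MYBup minus mock was 0.54 (adjusted p = 0.176). Marcks, a membrane-bound actin-crosslinking substrate of protein kinase C, showed the same order, with 179, 157 and 154 CPM in MYBup, 112, 128 and 130 in mock and 29.4, 29.7 and 42.3 in wt. Its log2 fold change was 2.27 against wt and 0.41 against mock (adjusted p = 0.0606). Vangl2, a planar cell polarity gene, had 1.84 against wt and 0.26 against mock (adjusted p = 0.188), and Cldn3, a claudin of tight junctions, 2.21 and -0.48 (adjusted p = 0.5). The spread of Cldn3 was wide, at 21.8, 41.4 and 46.5 CPM in MYBup and 4.59, 3.3 and 16.3 in wt. Vasn, whose product binds TGF-beta, lay between, with 2.24 against wt and 0.75 against mock, both called. Fos, a subunit of the AP-1 transcription factor, rose from 3.59, 7.19 and 7.86 CPM to 26.3, 23.4 and 30.2 CPM (log2 fold change 2.10, adjusted p = 0.000294) and was also above mock, at 10.4, 18.6 and 6.67 CPM (1.18, adjusted p = 0.0136).

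**Figure D2:**
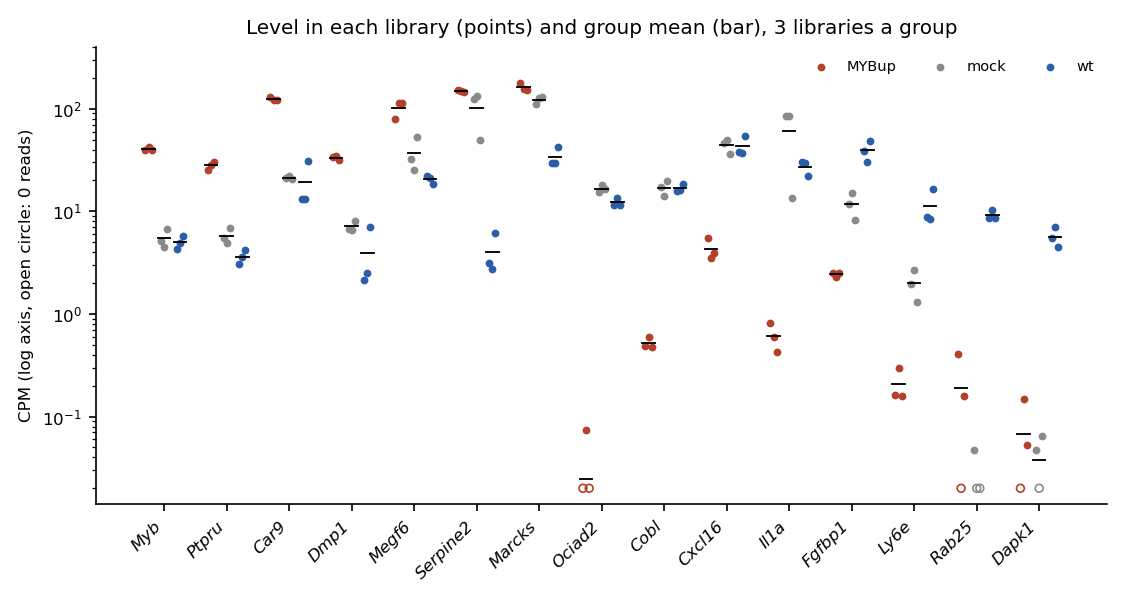
CPM on a log axis for 15 genes in the 3 MYBup (red), 3 mock (grey) and 3 wt (blue) libraries, with bars at the group means and open circles for libraries with 0 reads. For Myb, Car9, Ociad2, Cobl and Cxcl16 mock lies near wt, whereas for Serpine2, Marcks, Rab25 and Dapk1 it lies near MYBup.

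The falls were deeper than the rises, and 11 genes were nearly silent in MYBup cells, with at most 5 reads over the 3 libraries against at least 300 in wt. No gene met the reverse rule. The rule used read counts without scaling, and the wt libraries were deeper, so falls could meet it more easily than rises. Among calls of at least 4-fold, 105 genes were higher and 109 lower. Ociad2, an endosomal and mitochondrial membrane protein gene, had 1 read in MYBup and 827 each in wt and mock, a ratio of wt to MYBup of 549 per unit of library size (exact 95% interval 98.3 to 21724). B4galt6, which makes lactosylceramide, had 1 read against 791 in wt and 1444 in mock (ratio 525, 94.0 to 20780). Epb41l4a, of the band 4.1 family, had 4 reads against 1221 and 961 (ratio 203, 79.0 to 745). Slc36a4, an amino acid carrier gene, and Piezo2, a mechanically gated channel gene, each had 5 reads in MYBup, against 715 and 660 in wt and 982 and 703 in mock. For these 5 genes the silence was found in MYBup alone among the 3 lines. Reads counted without molecular identifiers are not independent molecules, so these intervals cover counting error only.

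Mock cells were silent too for 2 of the 11, with at most 5 reads, while 7 of the 11 had at least 150 reads in mock. Hexa encodes the alpha subunit of lysosomal hexosaminidase and had 0 reads in the 3 MYBup and the 3 mock libraries against 549 in wt, at least 122-fold higher in wt than in MYBup when 3 reads over the group are taken as the floor. Dapk1, a death-associated kinase gene, had 3 reads in MYBup and 2 in mock against 385 in wt (ratio 85.2, 29.0 to 415). Mal2, a transcytosis protein gene of polarised epithelia, had 0 reads against 496 in wt and 50 in mock, at least 110-fold higher in wt. Sh3tc2 was at 0, 309 and 285 reads in MYBup, wt and mock, at least 68.4-fold higher in wt. The last 2 of the 11 were Sox13, with 1 read in MYBup, 317 in wt and 155 in mock, and Map1a, with 4, 301 and 22. 4 of the 11 genes lie on chromosome 18 (B4galt6, Epb41l4a, Piezo2 and Sh3tc2). That chromosome holds 304 of the 11291 tested genes, and 26.3% of those 304 fell and 11.5% rose. Exons of Hexa overlap those of Tmem202 by 255 bases on the opposite strand.

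Secreted inflammatory mediators were among the deepest falls of well measured genes. Il1a, the gene of interleukin 1 alpha (chr2:129299610-129309972), was at 0.815, 0.591 and 0.427 CPM in MYBup and 30.3, 29.6 and 22.1 CPM in wt. All MYBup libraries lay below all wt libraries (log2 fold change -5.53, SE 0.95, adjusted p = 0.000646). Mock was at 84.2, 85 and 13.5 CPM, with replicate 3 far below the other mock libraries. Cxcl16, a membrane-bound chemokine gene, was at 5.46, 3.47 and 3.95 CPM against 37.7, 37.3 and 54.2 in wt and 46.4, 50.1 and 36.4 in mock (log2 fold change -3.34, adjusted p = 7.74e-07), so that mock and wt overlapped and MYBup lay apart. Cxcl16 shares 552 exon bases with Zmynd15 on the opposite strand, and Il1a shares 222 with Gm14023. Cxcl1 and Cxcl5 encode neutrophil-attracting chemokines. Cxcl1 fell from 33.5, 23.4 and 23.4 CPM to 8.07, 7.91 and 9.17 CPM (log2 fold change -1.67, adjusted p = 0.00316).

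Several chemokines rested on few reads or were spread widely in mock. Cxcl5 was at 9.53, 8.35 and 7.63 CPM in MYBup, 40.2, 30.9 and 38.7 in wt and 186, 195 and 39 in mock, which gave log2 fold changes of -2.11 against wt (adjusted p = 0.0173) and -4.05 against mock. Its call against wt ended without MYBup replicate 3 (adjusted p = 0.0588). Ccl2, the monocyte chemoattractant, had 2 reads in MYBup, 88 in wt and 264 in mock, at 0.818, 1.03 and 2.16 CPM in the wt libraries. The wt to MYBup ratio was 29.2 (7.85 to 245). The fitted log2 fold change was -4.66 (SE 1.73, adjusted p = 0.0478), and the call ended when any 1 of the 6 libraries was left out (adjusted p 0.0535 to 0.144). Lcn2, the iron-binding lipocalin, was at 0.733, 0.813 and 0.48 CPM in MYBup and 1.82, 0.743 and 3.5 CPM in wt and did not pass against wt (log2 fold change -1.59, adjusted p = 0.307). Against mock, at 28, 31.5 and 2.42 CPM with replicate 3 far below the others, it had -4.97 (adjusted p = 0.00163). Cxcl3 had 0 reads in MYBup, 24 in wt, of which none came from replicate 2, and 348 in mock, and did not pass against wt (adjusted p = 0.072).

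Of 23 tested chemokines and cytokines, 9 fell and 5 rose, with a median of -0.47. These are 39.1% and 21.7%, the rises near the 19.4% of all genes. Without MYBup replicate 1 and wt replicate 3, 5 fell and 7 rose. The risers were Il18 (1.37), Tslp (1.13), Clcf1 (0.63), Il34 (0.60) and Csf1 (0.54), a set that holds the epithelial alarmin TSLP and both ligands of the CSF1 receptor. Tslp stood at 56.4, 47.8 and 49.1 CPM in MYBup, 22.6, 28 and 19.2 in wt and 13.3, 13.4 and 16.2 in mock, so that the groups did not overlap. The NF-kB list, with its subunits, inhibitors and response genes, had 12 lower and 3 higher of 27 tested (44.4% and 11.1%). Its median was -0.33, and 8 were lower and 2 higher without those 2 libraries. Vcam1, an adhesion molecule for leukocytes, fell from 109, 98.4 and 124 CPM to 44, 43.2 and 42.3 CPM (log2 fold change -1.35, adjusted p = 6.94e-07), with mock at 99.7, 89.7 and 95.4 CPM. Nfkbiz, a co-regulator of NF-kB in the nucleus, was at 10.3, 11.2 and 10.5 against 28.6, 24.9 and 24.9 CPM (-1.29), and Icam1 had -2.80 with few reads. The call of Icam1 ended without MYBup replicate 2 (adjusted p = 0.0501), without MYBup replicate 3 (0.05) and without wt replicate 3 (0.0667). Among the subunits, Rel (-1.11) and Nfkb2 (-0.48) fell, Rela rose (0.33, a call that ended without MYBup replicate 1 at adjusted p = 0.0617), and Nfkb1 (-0.04) and the inhibitor gene Nfkbia (0.00) did not pass. Ptgs2, the inducible prostaglandin synthase, fell by 0.93, while its constitutive relative Ptgs1 rose by 0.98 on the log2 scale.

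An NF-kB core of 10 letters, GGG and TTTCC with any 2 letters between them, was searched on both strands in the 250 bases before the start of each gene in a RefSeq table (GRCm38.p6). The table held 28 promoters of 22 of the 27 tested NF-kB genes, and 21.4% of them carried these letters. So did 4 (25%) of the 16 promoters found for 14 tested chemokine and cytokine genes, against 1.41% of all 32851 promoters. The NF-kB list was drawn up from NF-kB genes, so its share does not bear on MYBup against wt. Over promoters of all tested genes the share was 1.48%. It was 2.22% for genes called lower and 1.25% for those called higher, and these shares were not tested. The promoters of 3 genes that fell are shown 5′ to 3′ because they carry the match, which is in capitals. They were chosen after the values were seen. The match began 80 bases before the start in Ccl20 (chr1:83116516-83116765, plus strand), 89 and 71 bases before it in Cxcl1 (chr5:90890995-90891244, plus strand) and 91 bases before it in Rel (chr11:23770970-23771219, minus strand).
Ccl20: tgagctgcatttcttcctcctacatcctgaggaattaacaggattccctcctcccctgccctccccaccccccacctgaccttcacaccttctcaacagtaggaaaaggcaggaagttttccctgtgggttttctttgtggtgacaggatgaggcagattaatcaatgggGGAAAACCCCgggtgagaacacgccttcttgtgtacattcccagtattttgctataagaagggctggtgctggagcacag
Cxcl1: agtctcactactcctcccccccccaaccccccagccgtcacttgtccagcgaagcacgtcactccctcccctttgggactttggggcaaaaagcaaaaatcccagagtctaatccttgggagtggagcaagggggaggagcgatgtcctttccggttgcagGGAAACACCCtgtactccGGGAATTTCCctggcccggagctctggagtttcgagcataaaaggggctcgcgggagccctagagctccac
Rel: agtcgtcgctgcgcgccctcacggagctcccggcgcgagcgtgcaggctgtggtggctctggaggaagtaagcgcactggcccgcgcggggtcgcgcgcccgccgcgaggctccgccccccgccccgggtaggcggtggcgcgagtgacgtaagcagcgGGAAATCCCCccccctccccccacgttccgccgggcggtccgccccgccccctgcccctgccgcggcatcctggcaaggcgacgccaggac
Ccl20, a chemokine that draws dendritic cells and lymphocytes, had 9 reads in MYBup, 99 in wt and 77 in mock. Its log2 fold change was -2.82 (adjusted p = 0.0387), and its call ended when any 1 of the 6 libraries was left out (0.057 to 0.132). The letters also stood before Nfkbia, which was not called, and before Csf1, which rose, so they were not limited to genes that fell. A match is a string of letters and not a site shown to be bound. The letters AACNG, the core bound by c-Myb, occur in most promoters, and stood in 74.2% of all and 71.6% of those of tested genes. The shares were 71.6% for genes called higher and 70.1% for those called lower.

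Genes of cholesterol synthesis fell together, and theirs was the largest share of calls in 1 direction among the 36 lists. Of 26 tested members 20 fell and none rose, 76.9% against 18.7% of all genes, and the median log2 fold change was -0.95. The count was also 20 without MYBup replicate 1 and wt replicate 3. The fall ran along the pathway. At its entry Hmgcs1, which makes HMG-CoA, stood at 61.4, 62 and 61 CPM in MYBup and 198, 147 and 211 CPM in wt (log2 fold change -1.59, SE 0.13, adjusted p = 2.6e-06). Idi1, which isomerises the isoprenoid unit, had the largest fall, from 40.7, 32 and 48.6 CPM to 9.29, 10.3 and 11.1 CPM (-1.97, SE 0.16, adjusted p = 1.88e-06). Downstream, the squalene and sterol enzymes Sqle (-1.15), Lss (-1.18), Cyp51 (-1.49) and Msmo1 (-1.60) fell as well. MYBup and wt libraries did not overlap in any of these genes. Exons of Hmgcs1 and Idi1 share 557 and 323 bases with Gm48342 and Gm48574.

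Some regulators of the pathway fell as well. Srebf2, the transcription factor that drives sterol genes, fell from 212, 160 and 188 CPM to 82.7, 98 and 99.6 CPM (log2 fold change -1.0, adjusted p = 4.69e-05), and its retention factor Insig1 by 1.22 on the log2 scale. Srebf1 (0.04), Scap (-0.13) and Insig2 (0.11) did not pass. Mock cells lay between for many members. In mock minus wt, 9 of the 26 were lower and 1 higher (median -0.17, against 17.9% and 18.0% of all genes), and in MYBup minus mock 18 were lower and none higher (median -0.71, against 12.6% and 14.3%). Idi1 was at 28.2, 23 and 21 CPM in mock, below every wt and above every MYBup library. Hmgcs1 was at 160, 145 and 118 CPM in mock, above every MYBup library and overlapping wt.

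**Figure D3:**
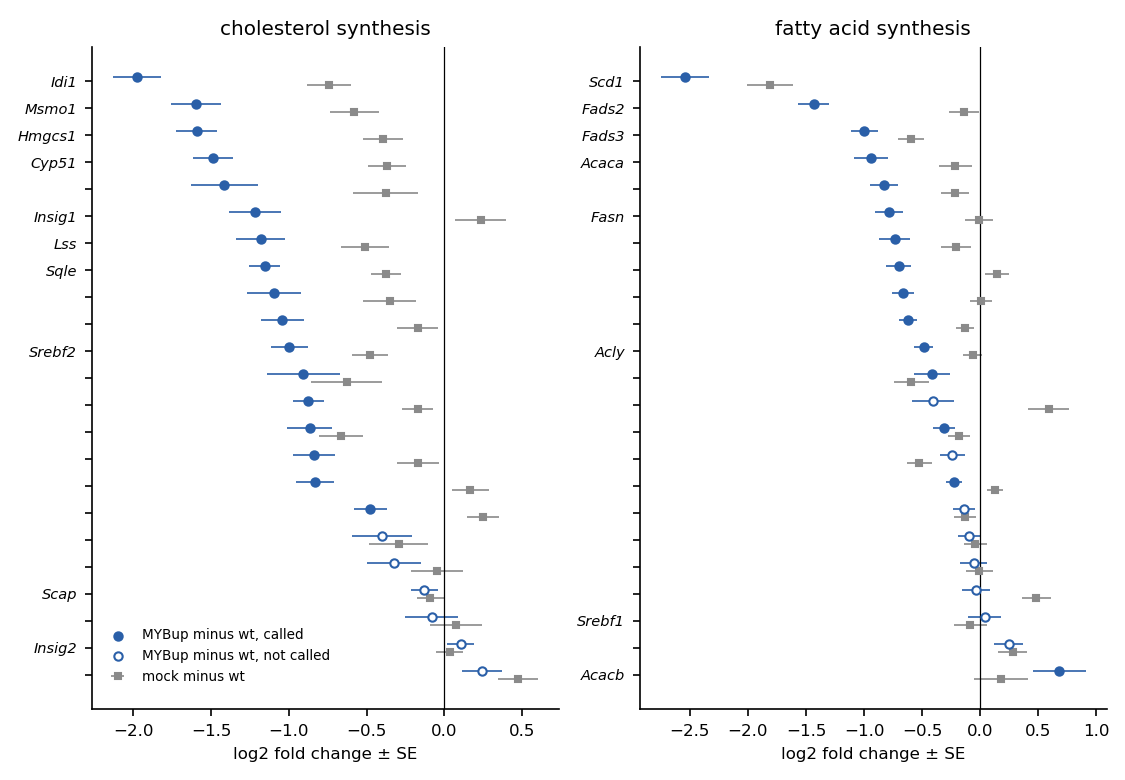
Log2 fold change with SE for 23 tested genes each of cholesterol (left) and fatty acid synthesis (right), with names for those described in the text. Blue circles are MYBup minus wt, filled where called, and grey squares are mock minus wt, and both use the same wt libraries. The 17 called cholesterol genes plotted all lie left of 0, with mock nearer to 0 for each of the named ones.

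The sterol regulatory letters TCACNCCAC, searched on both strands, stood in 1.05% of all promoters and in 1 of 25 promoters of the list's genes (19 of 26 matched), that of Hmgcs1 (chr13:119690101-119690350, plus strand), where the match, in capitals, began 137 bases before the start. It is shown because it is the only one found in the list.
Hmgcs1: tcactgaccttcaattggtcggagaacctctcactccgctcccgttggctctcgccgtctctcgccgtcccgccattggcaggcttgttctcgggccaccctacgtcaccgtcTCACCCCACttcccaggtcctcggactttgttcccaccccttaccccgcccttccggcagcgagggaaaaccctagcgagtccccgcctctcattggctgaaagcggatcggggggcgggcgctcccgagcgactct
The windows hold only the 250 bases before each start, and sites outside them were not searched.

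Fatty acid synthesis fell in the same direction. Of 23 tested members 14 fell and 1 rose (60.9% and 4.35%), with a median of -0.42. The falls were 12 without MYBup replicate 1 and wt replicate 3. Scd1, the main stearoyl-CoA desaturase gene, fell from 130, 96.5 and 155 CPM to 24, 21.1 and 20.5 CPM (log2 fold change -2.54, SE 0.21, adjusted p = 2.35e-06). Mock cells stood at 45, 36.8 and 26.5 CPM, below every wt library, and MYBup minus mock was -0.73 (adjusted p = 0.0194). The desaturase gene Fads2, by contrast, was at 43.3, 46.6 and 47.6 CPM in MYBup, 131, 96.7 and 145 in wt and 123, 109 and 106 in mock, so that MYBup alone lay apart (-1.44 against wt and -1.30 against mock). Its relative Fads3 fell by 1.0 on the log2 scale. The synthase Fasn fell by 0.79, the carboxylase Acaca by 0.94 and the citrate lyase Acly by 0.49 on the log2 scale. Acacb, the mitochondrial carboxylase that restrains fatty acid oxidation, rose by 0.68, and its call ended without MYBup replicate 2 (adjusted p = 0.143) or 3 (0.0576) or wt replicate 2 (0.124).

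Epithelial junction genes changed in both directions, with more falls. Of 35 tested, 18 fell and 8 rose, with a median of -0.36. The falls were 51.4% against 18.7% of all genes, and the rises 22.9%, near the 19.4% of all. Without MYBup replicate 1 and wt replicate 3 the counts were 10 and 6. Rab25, an epithelial GTPase gene of apical recycling, was nearly lost, at 0.407, 0 and 0.16 CPM against 8.68, 10.3 and 8.58 CPM in wt (log2 fold change -5.62, adjusted p = 2.35e-06). Cldn7 stood at 0.815, 1.04 and 1.6 against 9.72, 8.63 and 13.8 CPM (-3.15) and Cldn4 at 38.5, 31.2 and 34.2 against 115, 93.1 and 123 CPM (-1.68), both claudins of tight junctions. The E-cadherin gene Cdh1 was at 254, 267 and 262 CPM in MYBup and 443, 464 and 537 in wt (log2 fold change -0.88, adjusted p = 2.32e-05), a fall without overlap but from a high level. Splicing factors of the epithelial programme split, with Esrp2 lower (-1.34) and Esrp1 higher (0.74).

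Mock cells also differed from wt cells in epithelial junction genes, and both comparisons use the wt libraries. In mock minus wt 18 of the 35 were lower and 6 higher, against 17.9% and 18.0% of all genes. MYBup minus mock gave 7 lower and 5 higher with a median of -0.08, against 12.6% and 14.3%. Rab25 was at 0.0474, 0 and 0 CPM, Cldn7 at 1.42, 2.5 and 1.37 CPM and Cdh1 at 290, 257 and 283 CPM in mock, and MYBup minus mock was 2.78, -0.53 and -0.08, none of them called. Of the mesenchymal genes, 7 of 11 tested rose and 1 fell (63.6% and 9.09%), with a median of 0.69. In mock minus wt 4 of the 11 were higher and 1 lower. In MYBup minus mock 3 were higher and 1 lower, with a median of 0.29. Vim, the intermediate filament vimentin, was at 5567, 5580 and 5695 CPM against 3331, 3170 and 3386 (0.77, adjusted p = 8.32e-05), Twist1 at 24.8, 25.7 and 24.4 against 15.4, 13.4 and 13.9 (0.81) and Foxc2 at 15, 24.8 and 23.6 against 8, 5.95 and 9.11 (1.47). Snai1 rose by 0.74 and S100a4 by 0.69, Axl fell by 0.36, and Zeb2 (-0.03) and Fn1 (0.56) did not pass. The fibroblast markers given above were also higher in MYBup, through Pdgfra at 38.7, 48.1 and 48.6 CPM against 28.1, 30.2 and 21.5 CPM, while Col1a1, Col3a1, Fap, Lum and Pdgfrb had no read in MYBup. Their part in the rise of mesenchymal and matrix genes was not tested. Of the keratins, Krt13 (2.64), Krt15 and Krt8 (0.45) rose and Krt80 (-1.23) and Krt7 (-0.56) fell. Krt15 had 39 reads in MYBup, 2 in wt and 10 in mock, a ratio of 29.4 (7.60 to 251). Mammary lineage factors had 9 higher and 3 lower of 19 (47.4% and 15.8%). Mock minus wt also had 9 higher and 3 lower, against 18.0% and 17.9% of all genes. MYBup minus mock had 3 higher and 3 lower (median 0.07), against 14.3% and 12.6%. Cd24a rose by 0.69 and Id4 by 1.16, the receptor gene Erbb3 fell by 1.20, and Tfap2c had 1 read in MYBup, 23 in wt and 64 in mock (its call ended without MYBup replicate 3, adjusted p = 0.0505).

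Matrix genes rose more often than they fell, 14 against 2 of 33 tested (42.4% and 6.06%), with a median of 0.21. Col17a1, a collagen of hemidesmosomes, was at 5.3, 5.99 and 6.24 CPM against 2, 1.57 and 1.39 CPM (1.82), and the glycoprotein gene Tnc at 54.9, 61.8 and 57.8 against 25.2, 28.4 and 33.7 (1.0). Thbs2, a matrix thrombospondin gene, had 5 reads in wt, at 0, 0.165 and 0.048 CPM, and 42 in MYBup, at 0.815, 1.11 and 0.907 CPM (3.54, adjusted p = 0.00147), while its relative Thbs1 fell from 636, 674 and 794 to 301, 378 and 370 CPM (-1.0). Col6a2, of the type VI collagen, rose from 0.227, 0.248 and 0.384 to 0.652, 1.33 and 1.65 CPM, with mock at 0.712, 0.214 and 0.523 CPM (2.11). The laminin gene Lama3 fell by 1.72. Proteases and inhibitors had 10 higher and 9 lower of 35 (28.6% and 25.7%). Mmp3, stromelysin 1, rose from 222, 257 and 146 CPM to 644, 535 and 551 CPM (1.47), with mock at 727, 840 and 629 CPM. Plat, the tissue plasminogen activator gene, rose by 1.04 against wt and 2.02 against mock. Serpinb2, an inhibitor of plasminogen activators, fell from 10.1, 18 and 6.86 to 2.28, 1.7 and 1.49 CPM (-2.70), and the sheddase gene Adam12 from 24, 23.5 and 36.6 to 7.49, 7.98 and 8.91 CPM (-1.78).

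Of 32 tested integrins and adhesion genes 10 rose and 9 fell (31.25% and 28.1%). The counts were 7 and 5 without MYBup replicate 1 and wt replicate 3. Cadm1, an immunoglobulin-like adhesion molecule, rose from 0.182, 0.289 and 0.336 CPM to 2.53, 2.81 and 2.4 CPM (3.22, adjusted p = 3.11e-06) and the collagen receptor gene Itga2 fell by 1.32. A signature of lung metastasis described in human breast cancer cells had 8 of 16 tested genes higher and 3 lower than in wt. These are 50% and 18.75%, with a median of 0.33. Against mock the signature had 6 higher and 6 lower, with a median of 0.09, beside 14.3% and 12.6% of all genes. Its members Id1 and Id3, inhibitors of differentiation factors, both rose. Id1 stood at 21.7, 36.2 and 39.7 CPM against 18.2, 16.4 and 11.5 CPM in wt (1.09) and Id3 at 78.1, 110 and 110 CPM against 43.2, 40.1 and 34.4 CPM (1.34). Cxcl1, Vcam1 and Ptgs2 were the 3 that fell. Of 42 tested genes of the actin cytoskeleton and motility 8 rose and 10 fell, 19.0% and 23.8% against 19.4% and 18.7% of all genes, and 5 rose without MYBup replicate 3 (4 without MYBup replicate 1 and wt replicate 3). Cobl, an actin nucleator gene, had the deepest fall of them after the nearly silent Epb41l4a and Piezo2. It was at 0.489, 0.591 and 0.48 CPM in MYBup, 15.8, 16.1 and 18.6 in wt and 17.1, 14 and 19.9 in mock (log2 fold change -5.0, SE 0.31, adjusted p = 4.11e-07).

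Single genes linked to growth factors had large falls. Fgfbp1, which releases fibroblast growth factors from the matrix, fell from 39, 30.4 and 48.7 CPM in wt to 2.53, 2.29 and 2.51 CPM in MYBup, with mock at 11.8, 15.1 and 8.17 CPM between them (-4.0 against wt and -2.25 against mock, both called). Ly6e, a GPI-anchored protein gene, showed the same order, with 8.91, 8.47 and 16.4 CPM in wt, 0.163, 0.296 and 0.16 CPM in MYBup and 1.94, 2.71 and 1.31 CPM in mock (-5.74 and -3.24). Grap, an adaptor gene, fell from 10.8, 10.1 and 8.73 to 0.489, 1.04 and 0.747 CPM (-3.68). The EGF receptor gene Egfr fell from 5.45, 3.63 and 5.56 to 0.407, 0.961 and 1.17 CPM (-2.45, adjusted p = 6.69e-05) and the ligand Areg rose from 31.7, 35.4 and 28.1 to 69, 59.9 and 60.2 CPM (0.99), while Erbb2 (-0.06) did not pass.

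Of 36 tested TGF-beta, BMP and YAP genes 9 rose and 11 fell (25% and 30.6%), and the median was -0.05. The counts were 8 and 6 without MYBup replicate 1 and wt replicate 3. Smad6, an inhibitor of BMP signalling, rose by 1.17 and Id2 by 1.43. The activin antagonist Fst (-2.22), Edn1 (-1.77), Inhbb (-1.66, adjusted p = 0.0741 without those libraries) and the tissue factor gene F3 (-1.40) fell. In the Wnt pathway 5 of 24 rose (20.8%, near the 19.4% of all genes) and 7 fell (29.2%). The rises were 3 when MYBup replicate 2, MYBup replicate 3 or wt replicate 3 was left out. Nkd2, an intracellular antagonist, had 0 reads in MYBup against 82 in wt and 117 in mock, at least 18.2-fold higher in wt. The secreted antagonist Sfrp1 fell from 12.4, 12.9 and 16 CPM to 2.36, 3.25 and 3.31 CPM, with mock at 20.6, 21 and 25.1 CPM (-2.19), and the receptor gene Fzd1 rose from 2.54, 2.81 and 3.26 to 9.61, 12.4 and 11.6 CPM (1.97, adjusted p = 3.23e-06). Of the immediate early genes 7 of 29 rose and 8 fell, 24.1% and 27.6% against 19.4% and 18.7% of all genes. The rises were 4 without MYBup replicate 2 or 3 and also with each bin of exon length centred. The falls were 4 without MYBup replicate 1 or 3 or wt replicate 1 or 3, 5 without MYBup replicate 2, and 2 without MYBup replicate 1 and wt replicate 3 together. Fos was the only one called with a change of at least 2-fold.

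Lysosomal genes rose as a list by small steps. Of 34 tested, 21 rose and 2 fell, 61.8% against 19.4% of all genes, with a median of 0.34, and 16 rose without MYBup replicate 1 and wt replicate 3. Naglu, a lysosomal enzyme gene of heparan sulfate breakdown, was at 18.1, 17.7 and 17.3 CPM against 11.3, 9.54 and 6.9 CPM (0.94, adjusted p = 0.0016) and the saposin precursor Psap at 691, 636 and 653 against 394, 378 and 400 (0.76). Hexa, described above, was 1 of the 2 that fell. In mock minus wt 17 of the 34 were higher and 2 lower, against 18.0% and 17.9% of all genes. In MYBup minus mock 6 were higher and 5 lower, against 14.3% and 12.6%. Of 32 NRF2 targets 16 rose and 2 fell against wt (50% and 6.25%), with a median of 0.39. The counts were 13 and 3 without MYBup replicate 1 and wt replicate 3, and 7 were higher and 2 lower against mock. Cbr1, a carbonyl reductase gene, lay apart in MYBup, at 17.7, 18 and 18.2 CPM in MYBup, 5, 4.75 and 6.71 in wt and 5.31, 6.92 and 6.15 in mock (1.71 and 1.56). Mgst1, a microsomal glutathione transferase gene, was at 10.2, 9.02 and 7.89 CPM in MYBup, 1.55, 2.11 and 3.6 CPM in wt and 12.6, 16.5 and 7.98 CPM in mock (1.90 and -0.46), so that mock overlapped MYBup. Nqo1 rose by 1.02, ferritin Fth1 by 0.94, and the glutathione synthesis gene Gclc fell by 0.48. Akr1c13, an aldo-keto reductase gene, fell from 2.68, 3.97 and 3.55 to 1.22, 0.665 and 0.533 CPM (-2.13).

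Hypoxia genes had 10 higher and 3 lower of 22 tested (45.5% and 13.6%), with a median of 0.25. After Car9 the largest rises were those of the collagen hydroxylase gene P4ha2 (1.19), Stc1 (0.89) and the oxygen sensor gene Egln3 (0.88), and the angiogenic factor Vegfa fell by 0.45. Glycolytic genes had 5 higher and 2 lower of 22, 22.7% and 9.09% against 19.4% and 18.7% of all genes. With each chromosome centred 3 were higher, and 4 were lower without wt replicate 2. Without MYBup replicate 1 and wt replicate 3 there were 2 higher and 1 lower. Eno1 was at 0.47 and Hk2 at -0.41, and neither was called without those 2 libraries (adjusted p = 0.0875 and 0.0512). Genes of the ATF4 and unfolded protein responses leaned lower, 9 against 4 of 28 (32.1% and 14.3%), led by Vldlr (-1.49), Asns (-0.78) and Mthfd2 (-0.69). The counts were 6 and 5 without those libraries.

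Cell cycle genes moved by small amounts. Of 39 DNA replication genes 12 rose and 1 fell (30.8% and 2.56%, median 0.16). The rises were 7 without MYBup replicate 2 or wt replicate 3, and 4 without MYBup replicate 1 and wt replicate 3 together. Mock minus wt had 14 of the 39 higher and 2 lower, against 18.0% and 17.9% of all genes. MYBup minus mock had 6 higher and 2 lower (median 0.03), against 14.3% and 12.6%. Of 32 G2 and mitosis genes 11 fell and 3 rose (34.4% and 9.38%, median -0.11). In mock minus wt 4 of the 32 were lower and 5 higher, and in MYBup minus mock 7 were lower and none higher. Against wt 7 fell and 2 rose without MYBup replicate 1 and wt replicate 3. Mki67, a proliferation marker, was at 388, 537 and 474 CPM against 751, 709 and 859 CPM (-0.73, adjusted p = 0.00551, or 0.0723 without those 2 libraries), and Prc1, a spindle midzone gene, at 227, 235 and 233 against 308, 311 and 312 (-0.42). The helicase partner Gins2 (0.54) and the flap endonuclease Fen1 (0.52) had the largest rises, although their exons share 2758 bases with Gse1 and 1909 with Gm10143, and Pola1 fell by 0.58. Of 18 p53 targets 8 fell and 3 rose (44.4% and 16.7%), with Plk2 (-0.81) and Aen (-0.76) lower and Trp53inp1 (1.20) higher. In mock minus wt 6 of the 18 were lower and 3 higher, and in MYBup minus mock 1 was lower and 1 higher. Housekeeping genes were seldom called. Of 55 ribosomal protein genes 3 rose and 1 fell (5.45% and 1.82%). Of them 1 rose without wt replicate 3, and none rose and 6 fell without both libraries. Of 46 nuclear genes of oxidative phosphorylation 2 rose and 4 fell (4.35% and 8.70%). Of these 1 rose without MYBup replicate 3 or wt replicate 3, and none rose and 9 fell without MYBup replicate 1 and wt replicate 3. Interferon genes had 1 higher and 5 lower of 24, 4.17% and 20.8% against 19.4% and 18.7% of all genes. They had 5 higher without wt replicate 3, and 3 lower without MYBup replicate 2. Without MYBup replicate 1 and wt replicate 3 there were 3 higher and 3 lower. MHC class I genes had 2 lower of 17 (11.8%), and 1 higher and 1 lower without those 2 libraries. The transactivator Nlrc5 was at 4.64, 4.51 and 4.27 CPM against 9.5, 7.43 and 12.5 (-1.13).

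**Figure D4:**
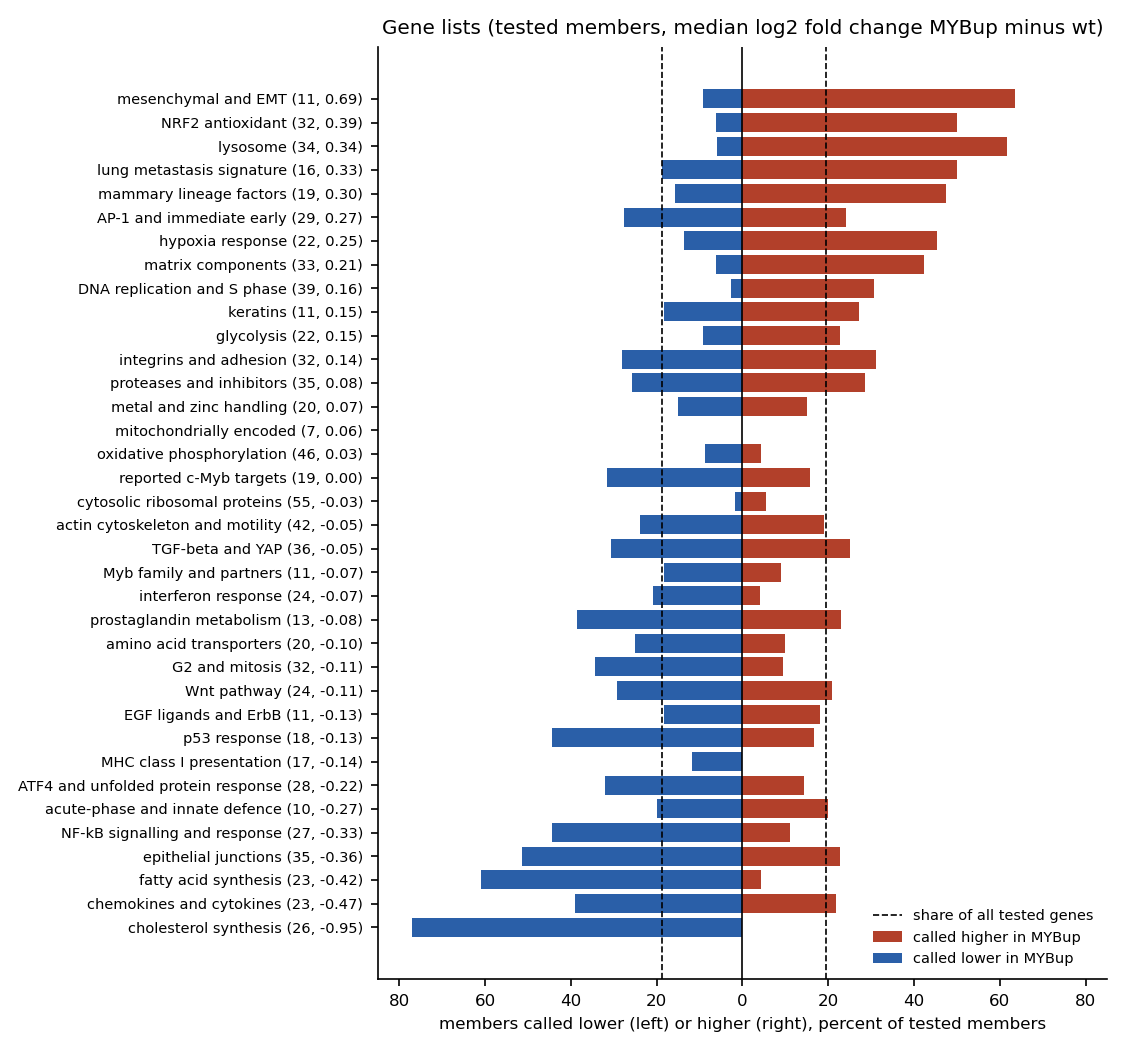
Share of tested members called lower (blue, left) and higher (red, right) in MYBup against wt for 36 gene lists, ordered by the median log2 fold change given in the label after the number of tested members. Dashed lines mark the shares over all tested genes, 18.7% lower and 19.4% higher. Cholesterol synthesis is at 76.9% lower and lysosome at 61.8% higher.

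Some genes took opposite directions depending on which control was used. Stc2, a secreted stanniocalcin gene, was at 7.98, 7.32 and 8.11 CPM in MYBup, 14.3, 11.5 and 12.4 CPM in wt and 1.52, 1.43 and 1.7 CPM in mock. It was lower than wt (log2 fold change -0.70, adjusted p = 0.00111) and higher than mock (2.33, adjusted p = 8.92e-07), with no overlap between any groups. Its relative Stc1 showed the reverse, at 14.8, 16.6 and 16.2 CPM in MYBup, 7.45, 7.23 and 11 in wt and 31.2, 28.1 and 23.1 in mock (0.89 and -0.79, both called). Pgf, the placental growth factor gene, followed the order of Stc1, with 9.86, 7.32 and 9.01 CPM in MYBup, 3.41, 4.09 and 4.46 CPM in wt and 21.3, 24.5 and 20.9 CPM in mock (1.13 against wt, adjusted p = 0.000599). Odaph, Maged2 and Snn were also higher than wt and lower than mock, with 0.76 and -0.82, 0.75 and -0.83, and 1.07 and -0.69. Adamts1, a matrix metalloproteinase gene of the ADAMTS family, was lower than wt and higher than mock, at 51.9, 55.1 and 55.7 CPM against 169, 162 and 184 in wt and 35.4, 28.7 and 41.8 in mock (-1.66 and 0.62). Ccnb1ip1 (-1.53 and 0.52), Tnfrsf21 (-0.78 and 0.52), Hmgn5 (-0.57 and 0.61) and Arhgdig (-0.49 and 1.13) did likewise. These genes were chosen for their opposite directions, so that the mean MYBup level lay between those of wt and mock follows from the choice. Both comparisons use the same MYBup libraries.

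Calls were spread unevenly over the chromosomes. On chromosome 12, 37.6% of 399 tested genes rose and 7.27% fell (median 0.19), and on chromosome 4, 36.4% of 718 rose and 10.4% fell (median 0.18). Chromosome 10, which holds Myb, had 29.2% higher and 9.80% lower. Chromosome 13 had 10.8% higher and 28.3% lower of 427 (median -0.11), and chromosome 7 had 9.94% higher and 24.9% lower of 835. On chromosome 12, the transcriptional inhibitor Id2 stood at 95.3, 86.1 and 88.3 CPM against 32.8, 45.6 and 21.7 CPM (1.43) and Ccdc71l at 19.5, 22.4 and 19.1 against 8.23, 10 and 9.16 (1.15). On chromosome 7, Tmc4, a channel-like gene, fell from 21.9, 19.7 and 26.9 to 4.56, 4.88 and 3.84 CPM with mock at 28.4, 29.7 and 28.4 CPM (-2.38), and the purinergic receptor gene P2ry2 from 14.6, 14.8 and 14.3 to 3.5, 4.14 and 4.85 CPM (-1.79). The median of mock minus wt was 0.21 on chromosome 12 and 0.11 on chromosome 4, and that of MYBup minus mock was -0.06 and 0.09.

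Fold changes also drifted with gene length. The median fell from 0.12 in the sixth of genes with the shortest exons to -0.15 in the sixth with the longest. Among the 6 libraries the drift was widest in MYBup replicate 1, whose medians in those bins were 0.15 and -0.21 relative to the mean of all 12 libraries. Its size in the lists was measured by centring each bin, which gave 2306 genes higher and 2278 lower. Cholesterol synthesis then had 21 lower and lysosome 22 higher. Ribosomal protein genes, which are short, went from 1 to 10 lower and oxidative phosphorylation from 4 to 12 lower. This setting was chosen after the data were seen.

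**Figure D5:**
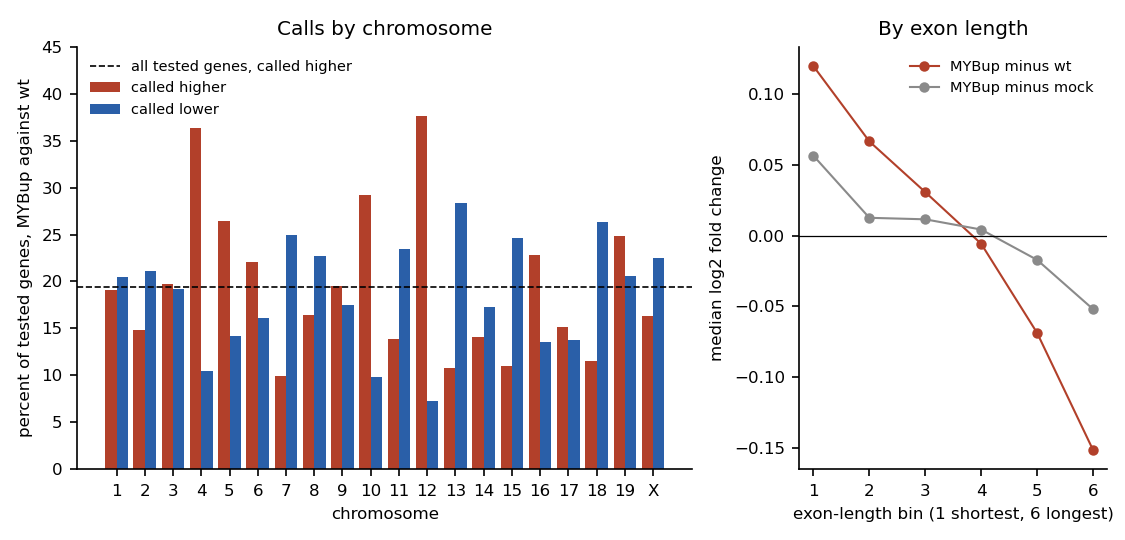
Left, percent of tested genes on each chromosome called higher (red) and lower (blue) in MYBup against wt, with the share of all tested genes called higher as a dashed line at 19.4%. Right, median log2 fold change in 6 bins of exon length, for MYBup minus wt (red) and MYBup minus mock (grey), which share the MYBup libraries. Chromosomes 4 and 12 hold the highest shares of rises, and the red line runs from 0.12 to -0.15.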

How the data were processed

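Gene counts of 12 RNA libraries were used as deposited by the authors, and no normalized table was used. The submitters' processing notes name STAR, edgeR and GRCm38. Not given in the sources used here are the counting tool, its annotation and its use of strand. Deposited counts of 5 digits or more carry 4 significant digits, an error of at most 0.05%. Per the labels' columns, all 12 libraries mapped to 1 sample each. Gene positions were taken from GENCODE M21 on GRCm38 by gene ID, and 38.5% of tested genes share exon bases with another gene.

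Counts were filtered with filterByExpr (edgeR 4.0.16, limma 3.58.1, R 4.3.3), scaled by TMM and fitted over all 12 libraries with 1 coefficient per group, so that 4 groups share the estimate of spread. MYBup minus wt was tested with edgeR's quasi-likelihood test. On simulated counts for 11203 genes, the test recovered 68.2% of 66 changes of 1.5-fold, 94.0% of 67 at 2-fold and 96.8% of 63 at 4-fold. False calls made up 3.43% of the calls. Unlike the data, these counts held few changed genes, no library set apart and no drift with gene length. The rates therefore do not carry over to the 4308 calls. Total counts were 12170188 to 24745660. Exact 95% intervals and the floor of 3 counts over a group cover counting error only. Alternatives used DESeq2 1.42.0, limma voom, other filters and scalings, and left-out libraries. Tables were made with Python 3.11.15 and plots with matplotlib 3.10.9.

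The members, 36 gene lists and 5 marker lists were chosen with earlier results of these data known. The genes named were Myb and its neighbours, and the 12 largest rises and falls at an average log2 CPM of at least 3 without overlap. To these were added up to 3 called members of each list, nearly silent genes, and genes of opposite direction against wt and mock (up to 6 each way). Ccl2, Il1a, Cxcl5 and Lcn2 were named too, as were up to 3 genes each of chromosomes 4, 7, 12 and 13. The medians of chromosomes 10, 15, 18 and X, among others, lay further from 0 than that of chromosome 7. Further list members were named as examples after their values were seen. A few list members are not reported here by name and are left out of the plot of lipid genes.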

Additional observations from a re-analysis of the deposited data

How the results depend on the processing

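The counts of calls in MYBup against wt stayed within 1.5 times of 4308 in 17 of 18 settings. The exception was a test against a minimum change of 1.5-fold (glmTreat), which called 539 genes, 319 higher and 220 lower, since it asks for a larger change. The other settings called 3065 to 4898 genes, and leaving out 1 library called 3256 to 3688. Rises made up 48.9% to 53.7% of calls outside glmTreat. With a replicate block on the 6 libraries 4588 genes were called, 2245 higher and 2343 lower. After the mean of each group was removed, libraries with the same number correlated at -0.03, -0.17 and 0.10. Those with unlike numbers correlated at -0.19 to 0.25, a range that holds the same-number values. With 3 libraries a group these values cannot show whether the numbers mark a shared batch. Myb kept its call in all 18 settings. Of the 176 other named genes called, 87 kept the call and direction in all 18, 89 lost it in at least 1 setting (34 in a setting other than glmTreat), and 0 reversed. The cause was not tested. The length-bin offset (4584 genes) and leaving out MYBup replicate 1 with wt replicate 3 (3065 genes, 2823 of them among the 4308) were chosen after seeing the data. The calls of Ccl2 (2 reads in MYBup) and Ccl20 (9 reads) ended when any 1 library was left out, and both were lost with libraries thinned to 1 depth.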
